A study of Homo sapiens with 58 samples.

Results

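The genes described here are CDKN1A, MDM2, BBC3, SESN1, TP53INP1, BTG2, FAS, GADD45A, RRM2B and ZMAT3. They were chosen by name as established targets of the transcription factor p53, and they make up 10 of the 60675 gene identifiers in the deposited table. All 10 passed the filter on low counts, with between 165 (BBC3) and 16482 (MDM2) expected counts per library. Their messenger RNA was measured after 24 h of exposure to herbal extracts in HepG2, an established human liver cancer line. Sayeok-tang and Bojungikgi-tang, both formulas of several herbs, were water extracts. The single herbs were extracted with 70% ethanol. They were Scutellariae Radix, Pinelliae Tuber, Zizyphi Fructus, Coptidis Rhizoma and ginger in its fresh form (Zingiberis Rhizoma Recens) and its dried form (Zingiberis Rhizoma). Doses were 500 (high), 100 (medium) and 20 (low) µg/mL, except that Coptidis Rhizoma had 56 µg/mL as its medium and 11.2 µg/mL as its low dose. The control, called vehicle, was 0.1% DMSO by the sample labels, although the series text gives another concentration. The 58 libraries formed 24 groups, of which 15 had 3 libraries, 4 had 2 (dried ginger high and all doses of Bojungikgi-tang) and 5 had 1 (Coptidis Rhizoma and Zizyphi Fructus).

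The protein p53 is held low in unstressed cells by MDM2, a ubiquitin ligase that is itself a p53 target, so that p53 and MDM2 form a feedback loop. Stress that frees p53 from MDM2 lets it switch on genes for cell cycle arrest, DNA repair, antioxidant defence and apoptosis. Several of the genes also have other activators. CDKN1A, GADD45A and BBC3, for instance, can be raised by the ATF4 and CHOP arm of the stress response without p53.

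RefSeq promoter windows (GRCh38.p14, 250 bases before to 50 bases after a transcription start) were found for 7 of the 10 genes, 15 windows in all. They were searched on both strands for the p53 response element consensus, which is 20 bases long when its 10-base repeats touch, with at most 3 mismatches. Matches lay in 4 of the 15 windows, in MDM2, SESN1 and FAS, and in 5.2% of all 34943 windows searched. The 2 MDM2 windows among them overlap and hold the same matches. The limit of 3 mismatches was set after the windows had been seen. Each of the 3 genes is shown with a window that holds its best match, with every match in capitals. The MDM2 window has 2 matches, of which the best, with 2 mismatches, is at bases 157 to 176. CDKN1A is shown because it changed most in the data below. A match is a description of letters and not a shown binding site, and the lack of one says only that these letters are not in this window.
MDM2, chr12:68808767-68809066, plus strand: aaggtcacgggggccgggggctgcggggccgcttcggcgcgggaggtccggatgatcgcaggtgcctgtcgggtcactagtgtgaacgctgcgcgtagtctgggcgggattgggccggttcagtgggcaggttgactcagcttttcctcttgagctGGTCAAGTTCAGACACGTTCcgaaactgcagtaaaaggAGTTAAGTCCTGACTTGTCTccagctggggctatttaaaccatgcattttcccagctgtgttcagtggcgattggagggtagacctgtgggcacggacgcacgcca
FAS, chr10:88991181-88991480, plus strand: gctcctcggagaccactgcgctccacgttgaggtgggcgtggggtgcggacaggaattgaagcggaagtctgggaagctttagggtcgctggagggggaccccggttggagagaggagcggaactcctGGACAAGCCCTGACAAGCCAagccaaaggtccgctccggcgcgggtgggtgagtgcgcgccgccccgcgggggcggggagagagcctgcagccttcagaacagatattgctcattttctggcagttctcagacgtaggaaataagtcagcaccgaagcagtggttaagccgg
SESN1, chr6:109008939-109009238, minus strand: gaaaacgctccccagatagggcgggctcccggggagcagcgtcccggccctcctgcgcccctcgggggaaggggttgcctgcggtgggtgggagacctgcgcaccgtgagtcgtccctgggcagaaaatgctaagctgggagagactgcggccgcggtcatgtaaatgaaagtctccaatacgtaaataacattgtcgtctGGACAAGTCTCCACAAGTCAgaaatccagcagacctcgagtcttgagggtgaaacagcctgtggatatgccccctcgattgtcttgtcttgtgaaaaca
CDKN1A, chr6:36678464-36678763, plus strand: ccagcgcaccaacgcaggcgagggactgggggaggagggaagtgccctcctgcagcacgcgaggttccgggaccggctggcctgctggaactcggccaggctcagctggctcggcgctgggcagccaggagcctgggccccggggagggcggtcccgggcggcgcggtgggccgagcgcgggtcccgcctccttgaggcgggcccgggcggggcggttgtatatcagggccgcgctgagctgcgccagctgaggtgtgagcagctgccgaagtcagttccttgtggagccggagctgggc

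The genes are protein coding and lie on GRCh38 at chr6:36676460-36687339 (CDKN1A, ENSG00000124762), chr12:68808176-68850686 (MDM2, ENSG00000135679) and chr19:47220822-47232766 (BBC3, ENSG00000105327). BTG2 (ENSG00000159388) and GADD45A (ENSG00000116717) are on chromosome 1, at 203305491 to 203309602 and at 67685061 to 67688338. SESN1 (ENSG00000080546) is on chromosome 6 at 108986437 to 109094819, FAS (ENSG00000026103) on chromosome 10 at 88990582 to 89015785 and ZMAT3 (ENSG00000172667) on chromosome 3 at 179017223 to 179072279. TP53INP1 (ENSG00000164938) and RRM2B (ENSG00000048392) are on chromosome 8. Exons of FAS overlap those of ACTA2 on the opposite strand over 380 bases, and exons of MDM2 overlap a processed pseudogene on the same strand over 439 bases. The mean level of ACTA2 was 48.6 CPM (counts scaled to the library total) against 21.2 for FAS, and the strand setting of the counting is not given in the sources used here, so part of the FAS reads could belong to ACTA2.

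Libraries held 22143845 to 31859981 expected counts, and 13945 genes entered the tests. Levels are CPM after TMM scaling, and a fold change is a log2 value from edgeR with its standard error (SE). A gene was called at a Benjamini-Hochberg adjusted p below 0.05 in edgeR's quasi-likelihood test, adjusted over all tested genes. Nothing in the labels tells if replicates came from different cultures, and p-values then measure only the spread between these samples, which may be technical. Every sample label, that of the vehicle included, names the batch BatchC, and what this batch covers is not stated in the labels. The sample codes give the vehicle a prefix of its own, while the formulas, the gingers, and Pinelliae Tuber with Scutellariae Radix each share one. If a prefix marks libraries handled together, handling and treatment cannot be told apart wherever the vehicle is the reference. The contrasts between doses of 1 extract, and between the paired extracts, stay within a prefix. All comparisons with the vehicle share its 3 libraries. The liver lineage of the cells was borne out by 8 of 8 hepatocyte markers, which summed to 29890 to 45351 CPM per library. Of the markers of other cell types, COL3A1, DCN, LUM, PTPRC, CD3E, VWF, CDH5 and KDR stayed below 1 CPM in every library. COL1A1 and PDGFRB of the fibroblast list, PECAM1 of the endothelial list and CD14 and LYZ of the leukocyte list did not. In the vehicle PDGFRB had a mean of 9.94 CPM, PECAM1 of 3.25 CPM and LYZ of 1327 CPM. Over all libraries the fibroblast list summed to 3.86 to 24.2 CPM, the endothelial list to 2.63 to 5.08 CPM and the leukocyte list to 1154 to 2325 CPM. Since CPM is a share of each library, fewer cells and less RNA per cell cannot be told apart.

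Per kilobase of exon, CDKN1A was the most abundant of the genes in the vehicle, at 33.5 ± 0.27 CPM per kb (SD, n = 3), followed by MDM2 at 24.1 ± 0.83 and GADD45A at 15.2 ± 1.0. RRM2B at 8.85 ± 0.32 and SESN1 at 8.81 ± 0.27 lay within their spread of each other. BTG2 at 7.52 ± 0.77 and ZMAT3 at 7.14 ± 0.16 did so too, below that pair. BBC3 was the least abundant, at 2.65 ± 0.26 CPM per kb. The length was that of all annotated exons of a gene merged, 3050 bases for CDKN1A and 13284 for MDM2. The order depends on this length, which may exceed that of the transcripts in use. Without it MDM2 was above CDKN1A, at means of 319.6 and 102.3 CPM. All 10 genes had their highest mean of the 24 groups in the high dose of Scutellariae Radix. In that group 28.7% of all tested genes were called higher than in the vehicle. How many of all tested genes peak there was not counted.

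At the high dose of Scutellariae Radix all 10 genes were called higher than in the vehicle, CDKN1A by the largest fitted fold and SESN1 by the smallest. CDKN1A, which encodes the cyclin-dependent kinase inhibitor p21, read 103, 101.4 and 102.5 CPM in the vehicle libraries and 452, 441 and 472 CPM in the treated ones. The treated libraries were all far above the vehicle, 4.45-fold in the fit (log2 2.15 ± 0.03 SE, adjusted p = 2.4e-40). GADD45A, a stress sensor that slows the cell cycle and aids DNA repair, read 31.9, 29.2 and 33.4 CPM against 66.8, 67.1 and 71.3 CPM. It rose 2.17-fold, and no treated library overlapped the vehicle. BTG2, an antiproliferative regulator of mRNA turnover, rose from 19.1, 20.1 and 23.1 CPM to 35.2, 30.1 and 31.6 CPM (log2 0.64 ± 0.11 SE, adjusted p = 3.9e-06).

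MDM2, the feedback inhibitor of p53, read 327, 324.9 and 307.0 CPM in the vehicle and 579, 611 and 569 CPM under the high dose of Scutellariae Radix, a 1.83-fold rise (adjusted p = 3.6e-21). Among the apoptosis genes, BBC3, which encodes the BH3-only protein PUMA, went from 7.61, 8.45 and 9.24 CPM to 23.2, 22.1 and 20.2 CPM. That was the second largest log2 change of the panel, 1.37 ± 0.10 SE (adjusted p = 3.4e-16). FAS, a death receptor, read 20.5, 17.8 and 18.3 CPM against 36.8, 37.7 and 37.7 CPM, a 1.99-fold rise. TP53INP1, which helps direct p53 to apoptosis genes and takes part in autophagy, read 28.8, 28.2 and 28.6 CPM against 55.0, 59.7 and 57.6 CPM, a 2.01-fold rise. The groups did not overlap for any of these genes, but the share of all tested genes without overlap was not counted.

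RRM2B, the p53-inducible small subunit of ribonucleotide reductase, rose from 49.4, 50.7 and 47.2 CPM to 72.0, 76.1 and 68.9 CPM at the high dose of Scutellariae Radix (log2 0.56 ± 0.05 SE, adjusted p = 3.9e-13). ZMAT3, an RNA-binding regulator of splicing, rose from 68.4, 70.6 and 67.6 CPM to 98.2, 100.5 and 97.7 CPM (log2 0.52 ± 0.05 SE). SESN1, a sestrin that restrains mTORC1 and oxidative stress, was near its vehicle level, at 47.5, 48.4 and 49.3 CPM against 43.6, 45.3 and 46.4 CPM. Its log2 difference of 0.10 ± 0.04 SE just passed the test (adjusted p = 0.049) and missed it under 10 of 12 other settings, with DESeq2 and with most libraries left out in turn among them. In all, 10 of 10 genes were called higher and 0 lower, where 28.7% of all tested genes were called higher and 28.1% lower. Their median log2 fold change was 0.93, and that of all tested genes 0.009. The summed hepatocyte markers were 29890 to 30325 CPM in these libraries against 40485 to 41138 CPM in the vehicle, with 8 of 8 called lower. The fibroblast list summed to 3.86 to 4.90 CPM against 10.2 to 11.8 CPM, and the leukocyte list to 1687 to 1695 CPM against 1294 to 1372 CPM. Of 2 fibroblast genes tested 2 were called lower, and of 2 leukocyte genes 1 was higher and 1 lower. The part of these markers in the result was not tested.

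**Figure D1:**
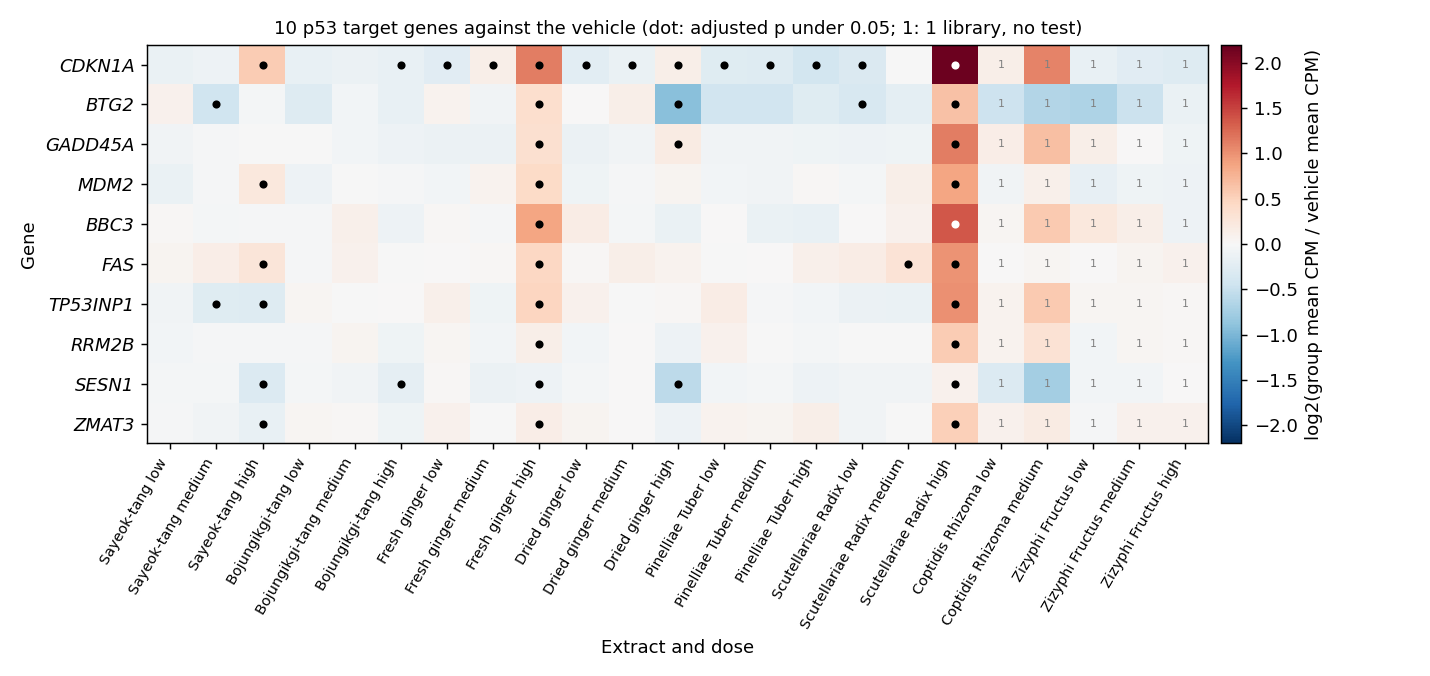
Heatmap of the log2 ratio of each group's mean CPM to the vehicle mean for the 10 genes (rows) in the 23 treated groups (columns), with a dot where the comparison with the vehicle had an adjusted p below 0.05 and a 1 where the group is 1 library. The high dose of Scutellariae Radix has a dot for all 10 genes, and the high dose of fresh ginger shows rises in 9 of them.

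The high dose of fresh ginger moved all 10 genes past the test, 9 of them upwards. CDKN1A read 228, 218 and 226 CPM, all above the vehicle libraries, a 2.19-fold rise (log2 1.13 ± 0.03 SE, adjusted p = 2.5e-29). BBC3 was the next largest at 16.0, 14.8 and 15.4 CPM (log2 0.87 ± 0.10 SE, adjusted p = 1.2e-09). TP53INP1 rose 1.39-fold to 36.5, 40.3 and 41.7 CPM, and FAS 1.38-fold to 25.1, 26.7 and 26.0 CPM. MDM2 rose 1.34-fold to 389, 449 and 444 CPM. The arrest genes BTG2 (28.8, 25.5 and 26.2 CPM) and GADD45A (42.6, 41.7 and 37.0 CPM) rose 1.29-fold and 1.28-fold. In each of these genes the fresh ginger libraries lay above every vehicle library. The share of all tested genes whose groups do not overlap was not counted.

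RRM2B (log2 0.13 ± 0.05 SE) and ZMAT3 (log2 0.15 ± 0.05 SE) were called higher in fresh ginger, but their libraries overlapped those of the vehicle. In both, replicate 1 was the low one, with RRM2B at 48.8 CPM beside 56.2 and 56.5 CPM, and ZMAT3 at 68.4 CPM beside 83.3 and 76.8 CPM. SESN1 was called lower, at 39.5, 43.1 and 42.2 CPM (log2 -0.12 ± 0.05 SE, adjusted p = 0.03). The calls of RRM2B and ZMAT3 were each lost in 5 of 12 other settings, and that of SESN1 in 6 of 12. The counts were 9 genes higher and 1 lower of 10, where 24.3% of all tested genes were called higher and 23.6% lower, and the panel's median log2 fold change was 0.39 against 0.003 for all genes. In these libraries the fibroblast list summed to 20.7 to 24.2 CPM, above the 10.2 to 11.8 CPM of the vehicle, and the leukocyte list to 2012 to 2325 CPM against 1294 to 1372 CPM. Of 2 fibroblast genes tested 1 was called higher and 0 lower, and of 2 leukocyte genes 1 was higher and 1 lower. The hepatocyte list summed to 37418 to 39010 CPM against 40485 to 41138 CPM, with 4 of 8 called lower and 1 higher. The part of these markers in the result was not tested.

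Dried ginger at the high dose, with 2 libraries, had calls in both directions. CDKN1A at 112.0 and 112.5 CPM was 1.10-fold higher than the vehicle (adjusted p = 0.0046), and GADD45A at 35.2 and 36.1 CPM was 1.13-fold higher (adjusted p = 0.033). BTG2 fell to 9.63 and 12.3 CPM, the lowest mean of the 24 groups (log2 -0.92 ± 0.15 SE, adjusted p = 9.9e-07). SESN1 fell to 29.9 and 30.8 CPM (log2 -0.57 ± 0.05 SE, adjusted p = 2.3e-12). MDM2, BBC3, FAS, TP53INP1, RRM2B and ZMAT3 did not pass the test, with log2 differences from -0.14 (BBC3) to 0.08 (FAS). In all, 2 of the 10 genes were called higher and 2 lower, shares near the 23.3% and 22.8% of all tested genes. The call of GADD45A was lost in 4 of 11 other settings and that of CDKN1A only without the filter on low counts. The hepatocyte markers summed to 35089 to 36268 CPM, below the 40485 to 41138 CPM of the vehicle, with 7 of 8 called lower. The fibroblast list summed to 12.1 to 12.6 CPM and the leukocyte list to 1450 to 1463 CPM, both above the vehicle ranges of 10.2 to 11.8 and 1294 to 1372 CPM. Of 2 fibroblast genes tested 1 was called higher and 1 lower, and 0 of 2 leukocyte genes tested were called. The part of these markers in the result was not tested.

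**Figure D2:**
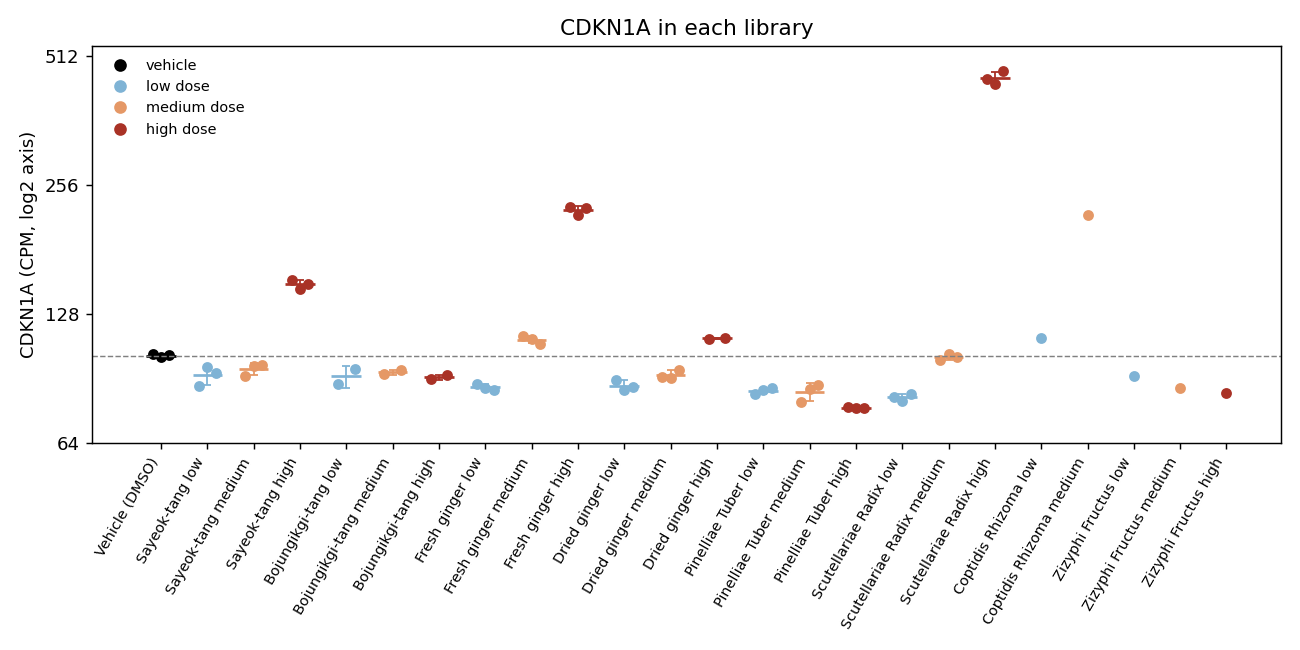
CDKN1A level in CPM on a log2 axis for each of the 58 libraries by group, with the group mean (line) and SD (bar) where a group has more than 1 library, and the vehicle mean as a dashed line. The 3 libraries of Scutellariae Radix high sit between 441 and 472 CPM, and 37 of the 55 treated libraries lie below all 3 vehicle libraries.

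Sayeok-tang at the high dose raised CDKN1A to 153, 147 and 150.1 CPM (1.47-fold, adjusted p = 1.2e-17), all above the vehicle. MDM2 rose to 371, 394 and 365 CPM (log2 0.24 ± 0.05 SE) and FAS to 22.9, 23.2 and 21.95 CPM (log2 0.27 ± 0.07 SE). In the same libraries SESN1 fell to 37.6, 34.4 and 37.3 CPM (log2 -0.31 ± 0.05 SE), TP53INP1 to 21.95, 24.1 and 24.1 CPM (log2 -0.29 ± 0.06 SE) and ZMAT3 to 58.8, 64.1 and 61.7 CPM (log2 -0.16 ± 0.05 SE). BBC3 stayed within the vehicle range at 8.55, 7.93 and 8.32 CPM, and BTG2, GADD45A and RRM2B did not pass either. With 3 called higher and 3 lower, the counts stood beside 20.3% and 19.9% of all genes, and the panel's median of -0.03 beside 0.000. The call of ZMAT3 was lost without vehicle replicate 2 and without replicate 1 of this dose. The hepatocyte markers summed to 34808 to 37819 CPM against 40485 to 41138 CPM in the vehicle, with 6 of 8 called lower, and the leukocyte list to 1851 to 1973 CPM against 1294 to 1372 CPM. The fibroblast list summed to 11.95 to 13.6 CPM against 10.2 to 11.8 CPM. Of 2 fibroblast genes tested 1 was called higher and 0 lower, and of 2 leukocyte genes 1 was higher and 1 lower. The part of these markers in the result was not tested.

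For Bojungikgi-tang at the high dose, with 2 libraries, no gene was called higher and 2 were called lower, beside 2.24% and 2.31% of all genes. Those were CDKN1A at 90.0 and 92.0 CPM (log2 -0.17 ± 0.04 SE, adjusted p = 0.0075) and SESN1 at 38.7 and 40.1 CPM (log2 -0.19 ± 0.05 SE, adjusted p = 0.018). Without replicate 2 of that dose neither was called, and SESN1 was also lost without replicate 3 of that dose or vehicle replicate 3. Pinelliae Tuber at the high dose had CDKN1A alone called lower, at 77.4, 77.1 and 77.2 CPM, the lowest mean of all groups (log2 -0.40 ± 0.04 SE, adjusted p = 8.6e-12). The counts of 0 higher and 1 lower stood beside 9.14% and 6.57% of all genes. At these high doses the fibroblast list summed to 7.55 to 9.00 CPM in Bojungikgi-tang and 7.61 to 8.78 CPM in Pinelliae Tuber, below the 10.2 to 11.8 CPM of the vehicle. The leukocyte list summed to 1707 to 1847 and 1452 to 1585 CPM, above the vehicle's 1294 to 1372 CPM. In each extract 1 of 2 fibroblast genes tested was called lower and 1 of 2 leukocyte genes tested was called higher. The part of these markers in the result was not tested.

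At the medium and low doses CDKN1A was the gene most often called, in 7 of 12 comparisons with the vehicle, and 6 of those 7 calls were lower. It was fitted below the vehicle in all 6 low-dose comparisons and called in 4. Its levels were 87.8, 86.0 and 85.0 CPM at the low dose of fresh ginger, 89.9, 84.9 and 86.4 CPM at that of dried ginger and 83.4, 84.9 and 86.0 CPM at that of Pinelliae Tuber. The low dose of Scutellariae Radix, at 82.1, 80.3 and 83.4 CPM, lay furthest below the vehicle (log2 -0.32 ± 0.04 SE, adjusted p = 1.8e-08). All 12 of these libraries were below the lowest vehicle library, which read 101.4 CPM. Since the vehicle has a code prefix of its own, a difference between treated and vehicle libraries that is not due to dose cannot be told apart from the treatment here.

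Fresh ginger at the medium dose was the exception, with CDKN1A at 113.5, 111.8 and 109.1 CPM (log2 0.12 ± 0.04 SE, adjusted p = 0.015), 1 gene higher and 0 lower beside 6.63% and 4.66% of all genes. At its low dose 0 were higher and 1 lower, beside 0.509% and 0.0932%. Dried ginger had 0 higher and 1 lower at each of these doses, always CDKN1A, beside 0.703% and 0.746% at the medium and 1.69% and 0.43% at the low dose. Pinelliae Tuber likewise had CDKN1A alone called lower at both, beside 0.122% and 0.165% at the medium dose (79.7, 85.5 and 87.5 CPM) and 0.237% and 0.0359% at the low dose. The call at the medium dose of dried ginger was lost without vehicle replicate 1 or 3, or replicate 1 or 2 of that dose. That of fresh ginger was lost without vehicle replicate 2 or replicate 1 of the medium dose.

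Among the other genes, FAS was called higher at the medium dose of Scutellariae Radix, at 23.5, 23.0 and 23.2 CPM (log2 0.31 ± 0.07 SE, adjusted p = 0.00063). CDKN1A there read 99.9, 103 and 101.4 CPM, overlapping the vehicle libraries. That made 1 higher and 0 lower, beside 8.99% and 9.33% of all genes. At the low dose of this extract CDKN1A and BTG2 were lower, the latter at 17.3, 13.3 and 17.9 CPM (log2 -0.35 ± 0.12 SE, adjusted p = 0.048), for 0 higher and 2 lower beside 5.44% and 4.87%. The medium dose of Sayeok-tang lowered BTG2 to 14.3, 15.9 and 15.5 CPM (log2 -0.44 ± 0.12 SE) and TP53INP1 to 23.4, 23.7 and 24.4 CPM (log2 -0.26 ± 0.06 SE), for 0 higher and 2 lower beside 2.17% and 2.04%. BTG2 lost its call in 5 of 11 other settings at the low dose of Scutellariae Radix and in 4 of 12 at the medium dose of Sayeok-tang. TP53INP1 lost its call at the latter dose without vehicle replicate 3 and without replicate 1 of the dose.

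None of the 10 genes was called by edgeR at the low dose of Sayeok-tang, where 0.0574% of all genes were called, or at the medium dose of Bojungikgi-tang, where 0.0645% were. At an unadjusted p below 0.05 the numbers were 2 and 1 of the 10 genes, and DESeq2 called 1 and 0. At the low dose of Bojungikgi-tang edgeR called none of the 10 and no gene at all (0%), while 844 genes, 3 of the 10 among them, had an unadjusted p below 0.05 and DESeq2 called 2 genes, none of them in the panel. CDKN1A there read 87.6 and 95.4 CPM.

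High against low dose within an extract removes the vehicle from the comparison. For Scutellariae Radix all 10 genes were called higher and 0 lower, beside 27.2% and 28.5% of all genes, with a median log2 fold change of 0.95 against -0.004. CDKN1A rose 5.55-fold (log2 2.47 ± 0.04 SE, adjusted p = 3.2e-42), BBC3 2.59-fold, GADD45A 2.35-fold and TP53INP1 2.19-fold. BTG2, from 17.3, 13.3 and 17.9 CPM to 35.2, 30.1 and 31.6 CPM, rose 1.99-fold. SESN1 rose 1.13-fold (43.3, 41.0 and 44.2 to 47.5, 48.4 and 49.3 CPM, adjusted p = 0.00075), and this call was kept in every other setting run.

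Fresh ginger gave 7 genes higher and 1 lower between its doses, beside 23.3% and 24.3% of all genes, and a median of 0.40 against -0.011. CDKN1A rose 2.59-fold (log2 1.38 ± 0.04 SE, adjusted p = 3.7e-32) and BBC3 rose (log2 0.85 ± 0.10 SE), from 9.01, 8.41 and 8.20 CPM at the low dose. GADD45A and MDM2 rose 1.41-fold and 1.40-fold. SESN1 was the gene called lower (log2 -0.15 ± 0.05 SE, adjusted p = 0.0062). Without replicate 1 of the high dose it was not called, nor was BTG2 (log2 0.30 ± 0.11 SE), which also lost its call without replicate 1 of the low dose. RRM2B (log2 0.09 ± 0.05 SE) and ZMAT3 (log2 0.06 ± 0.05 SE) were not called.

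Dried ginger again had calls in both directions, with 3 genes higher and 4 lower beside 23.2% and 24.3% of all genes. CDKN1A (log2 0.37 ± 0.04 SE), GADD45A (log2 0.31 ± 0.07 SE) and MDM2 (log2 0.15 ± 0.05 SE) were higher. BTG2 (log2 -0.93 ± 0.14 SE), SESN1 (log2 -0.52 ± 0.05 SE), BBC3 (log2 -0.32 ± 0.12 SE) and ZMAT3 (log2 -0.17 ± 0.06 SE) were lower. The BBC3 value rested on replicate 3 of the low dose, at 12.4 CPM beside 7.80 and 8.20 CPM. Without that library the log2 difference of BBC3 was -0.06, and the calls of MDM2 and ZMAT3 were lost too. BBC3 and ZMAT3 also lost theirs without replicate 1 of the high dose, and BBC3 and MDM2 without replicate 2.

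Sayeok-tang had 3 genes higher and 2 lower at the high against the low dose, beside 18.4% and 19.3% of all genes. CDKN1A (log2 0.71 ± 0.04 SE), MDM2 (log2 0.38 ± 0.05 SE) and FAS (log2 0.20 ± 0.07 SE) were higher, while SESN1 (log2 -0.27 ± 0.05 SE) and TP53INP1 (log2 -0.21 ± 0.06 SE) were lower. The call of FAS was lost without replicate 2 of the high or replicate 3 of the low dose, and that of TP53INP1 without replicate 1 of the high dose. For Pinelliae Tuber 0 were higher and 2 lower, beside 5.09% and 4.98%, namely CDKN1A (log2 -0.13 ± 0.04 SE) and TP53INP1 (log2 -0.23 ± 0.06 SE). CDKN1A was not called without replicate 3 of the low dose, nor TP53INP1 without replicate 1 of the high or replicate 2 of the low dose. Bojungikgi-tang gave 0 calls among the 10 genes in edgeR and in DESeq2 and 1 at an unadjusted p below 0.05, where 1.69% of all genes were called.

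**Figure D3:**
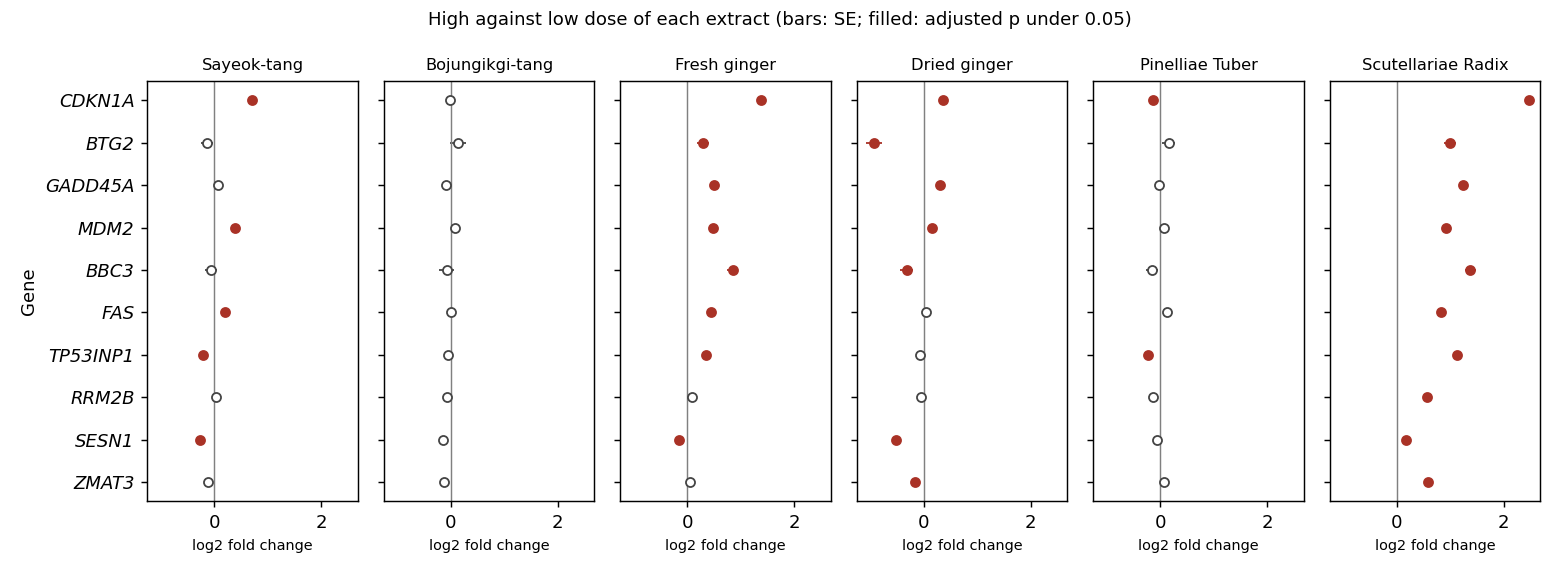
Log2 fold change of each gene (rows) between the high and the low dose of 6 extracts (panels), with the SE as a bar and filled points where the adjusted p was below 0.05. All 10 points are filled and right of 0 for Scutellariae Radix, while dried ginger has BTG2 at -0.93 and CDKN1A at 0.37.

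Extracts that share a code prefix and had replicates were compared directly at the high dose. Fresh ginger was above dried ginger in all 10 genes, beside 13.2% of all genes called higher and 10.2% lower, with a median log2 difference of 0.41 against 0.002. The difference was largest for BTG2, at 28.8, 25.5 and 26.2 CPM in fresh and 9.63 and 12.3 CPM in dried ginger (log2 1.29 ± 0.14 SE, adjusted p = 1e-09). BBC3 (log2 1.01 ± 0.12 SE) and CDKN1A (log2 0.99 ± 0.04 SE) differed by 2.01-fold and 1.99-fold. SESN1 differed by 1.37-fold (adjusted p = 4.9e-09), a gap that came with a level in dried ginger well under that of the vehicle. GADD45A was the closest, at 42.6, 41.7 and 37.0 CPM against 35.2 and 36.1 CPM (log2 0.18 ± 0.07 SE, adjusted p = 0.047), and its call was lost in 7 of 11 other settings, with 9 of the 10 genes called under DESeq2. ZMAT3 was not called without replicate 1 of dried ginger.

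Scutellariae Radix was above Pinelliae Tuber in all 10 genes as well, beside 27.2% of all genes called higher and 28.7% lower, with a median of 0.89 against -0.003. CDKN1A spanned its whole range over the study between these groups, 5.89-fold (log2 2.56 ± 0.04 SE, adjusted p = 1e-42). BBC3 differed 2.89-fold, and SESN1 by the least, 1.16-fold (adjusted p = 5.7e-05). Sayeok-tang against Bojungikgi-tang had 3 genes higher and 1 lower, beside 13.2% and 13% of all genes. CDKN1A (log2 0.72 ± 0.04 SE, adjusted p = 4e-19), FAS (log2 0.28 ± 0.08 SE) and MDM2 (log2 0.27 ± 0.05 SE) were higher in Sayeok-tang, FAS not without replicate 2 of Bojungikgi-tang. TP53INP1 was lower, at 21.95, 24.1 and 24.1 CPM against 28.8 and 28.4 CPM (log2 -0.29 ± 0.07 SE, adjusted p = 0.0016).

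Coptidis Rhizoma and Zizyphi Fructus had 1 library per dose, so their values carry no replicate check and no test. In the medium dose of Coptidis Rhizoma (56 µg/mL) CDKN1A read 218 CPM, 2.13-fold the vehicle mean and close to the level in fresh ginger at 500 µg/mL. GADD45A read 49.8 CPM (1.58-fold), TP53INP1 42.6 CPM (1.49-fold), BBC3 12.5 CPM (1.49-fold) and RRM2B 61.2 CPM (1.25-fold), all above every vehicle library. FAS, at 19.4 CPM, lay within the vehicle range, and MDM2 was at 347 CPM (1.08-fold). SESN1 at 26.9 CPM was the lowest of any group, and BTG2 read 13.2 CPM, with log2 ratios of -0.74 and -0.65. With 1.5-fold as the bound, 2 genes were higher and 2 lower, beside 10.4% and 11% of all genes.

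The low dose of Coptidis Rhizoma (11.2 µg/mL) had SESN1 at 36.7 CPM and BTG2 at 15.1 CPM, both below every vehicle library, with CDKN1A at 112.2 CPM (log2 ratio 0.13). None of the 10 genes differed 1.5-fold there, beside 3.18% of all genes higher and 2.99% lower. For Zizyphi Fructus CDKN1A read 83.7, 86.1 and 91.6 CPM at the high, medium and low dose, all below the vehicle libraries. No gene reached 1.5-fold at the high dose (1.33% and 1.41% of all genes) or the medium dose (1.29% and 1.54%). At the low dose BTG2 alone did, at 12.9 CPM (log2 ratio -0.69), beside 1.78% of all genes higher and 1.87% lower. That library is 1 of 3 that were named as standing apart and left out in another setting. With no replicate beside it, a library that stands apart cannot be told from an effect of the extract. Its hepatocyte markers summed to 35807 CPM against 40485 to 41138 CPM in the vehicle. Their part in the BTG2 value was not tested.

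Over the 24 groups CDKN1A had the widest range of the panel, 5.89-fold between the lowest and highest group mean. BTG2 followed with 2.94-fold and BBC3 with 2.89-fold, and RRM2B had the narrowest with 1.58-fold. In all 10 genes the libraries of Scutellariae Radix high stood clear of those of the next group. The share of all tested genes for which this holds was not counted. For CDKN1A the order below it was fresh ginger high with Coptidis Rhizoma medium, whose values met, then Sayeok-tang high at 150 CPM, standing clear on both sides. The next values, dried ginger high, Coptidis Rhizoma low and fresh ginger medium at 112.3, 112.2 and 111.5 CPM, could not be told apart by their ranges. The vehicle at 102.3 CPM and Scutellariae Radix medium at 101.6 CPM also met, and all 15 remaining groups lay lower.

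As a description over the 24 group means, in which both genes come from the same libraries, log2 GADD45A correlated with log2 CDKN1A at r = 0.93, MDM2 at 0.91, BBC3 at 0.90, RRM2B at 0.84 and TP53INP1 and FAS at 0.81. ZMAT3 gave 0.65, BTG2 0.44 and SESN1 -0.23. Much of this rested on few groups. Without Scutellariae Radix high, fresh ginger high and Coptidis Rhizoma medium (21 groups), MDM2 kept 0.69 and GADD45A 0.44, while BBC3 fell to 0.01 and TP53INP1 and ZMAT3 were at -0.45 and -0.61.

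**Figure D4:**
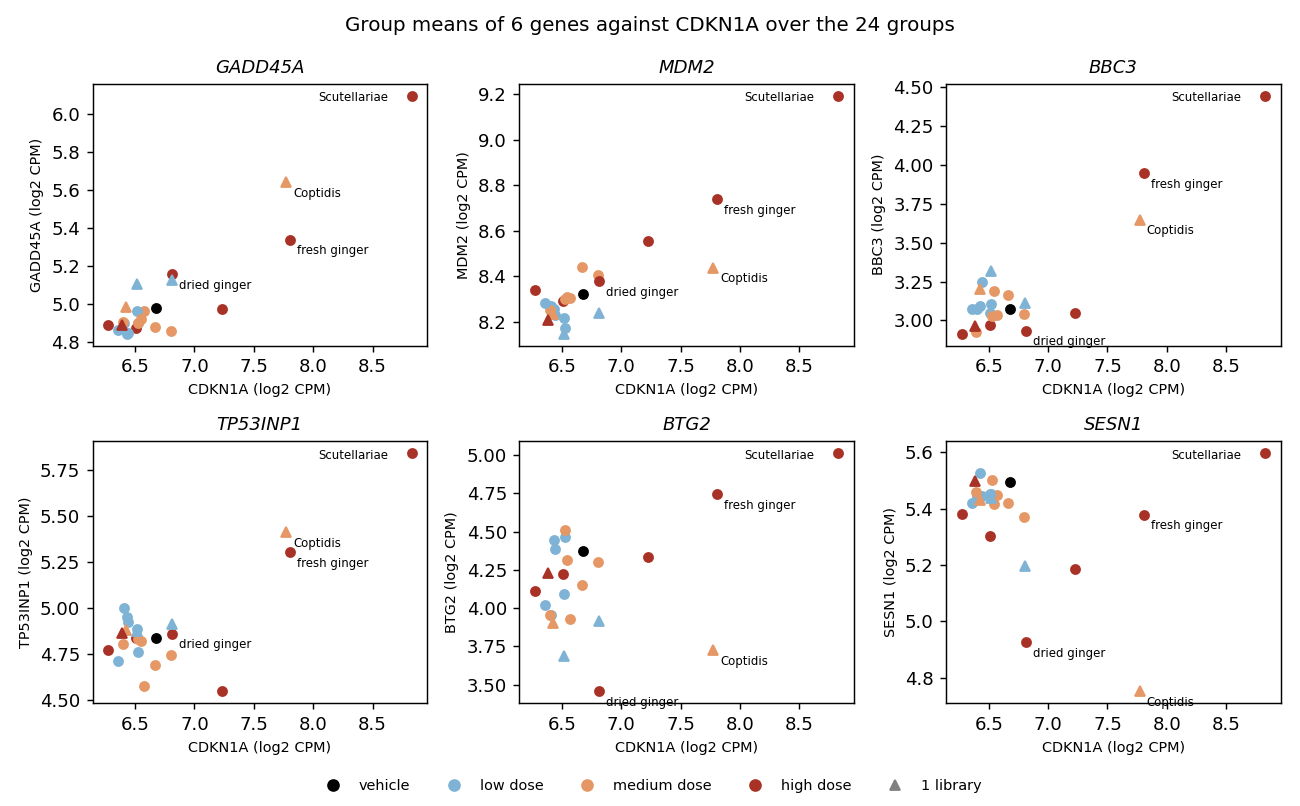
Group mean of 6 genes against that of CDKN1A, both in log2 CPM, for the 24 groups (circles, groups of 2 or 3 libraries; triangles, 1 library; colours by dose). GADD45A, MDM2 and BBC3 are high where CDKN1A is high, whereas BTG2 and SESN1 are low in dried ginger high and Coptidis Rhizoma medium.

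Among 10664 genes with a symbol and a mean of at least 5 CPM, the 5 outside the panel whose log2 group means were most like those of CDKN1A (Pearson r over 24 groups) were PPP1R15A (0.973), ATF3 (0.963), TNFRSF10B (0.960), DUSP1 (0.956) and PVT1 (0.950). Without Scutellariae Radix high they gave 0.954, 0.931, 0.931, 0.898 and 0.893. PPP1R15A, which encodes the phosphatase subunit GADD34, went from a mean of 16.3 CPM in the vehicle to 107.4 CPM in Scutellariae Radix high. ATF3, a stress-induced transcription factor, went from 4.05 to 30.9 CPM, and TNFRSF10B, the death receptor DR5, from 183 to 289 CPM. The highest value within the panel was the 0.93 of GADD45A.

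A list of 42 other p53 targets, 41 of them tested, moved in parts. At the high dose of Scutellariae Radix 28 were called higher and 5 lower, where 28.7% and 28.1% of all genes were, with a median log2 fold change of 0.30 beside 0.009 for all genes. GDF15, a stress-induced cytokine, led with 165.6 to 1058 CPM (log2 2.68 ± 0.07 SE), followed by PMAIP1 (log2 2.06 ± 0.17 SE), which encodes the BH3-only protein NOXA. PLK3 (1.73), SESN2 and SERTAD1 (both 1.57) and PLK2 (1.46) came next. BAX, the apoptosis effector, was at 117 CPM against 110.4 CPM and was not called (log2 0.08 ± 0.04 SE, adjusted p = 0.11). Fresh ginger had 22 higher and 6 lower (median 0.13), beside 24.3% and 23.6% of all genes, led by GDF15 (log2 2.25 ± 0.06 SE) and SERTAD1 (1.48).

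In dried ginger 10 of the 41 were higher, a share near the 23.3% of all genes, and 18 were lower, beside 22.8% (median -0.12), with GDF15 up (log2 1.66 ± 0.07 SE) and DDB2, a DNA damage recognition factor, down (-0.87). Sayeok-tang had 9 higher and 10 lower, near its 20.3% and 19.9% of all genes, with GDF15 at 1.52. Bojungikgi-tang had 0 higher and 5 lower, beside 2.24% and 2.31%, and Pinelliae Tuber 1 higher and 5 lower, beside 9.14% and 6.57%. SPATA18 was lower in both of these, by -0.28 and -0.31, and SESN2 by -0.30 and -0.23. Between the gingers 26 were higher in fresh ginger and 1 lower, beside 13.2% and 10.2% of all genes and the panel's 10 of 10.

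Of 17 genes that regulate p53, 16 were tested. MDM4, the partner of MDM2, was higher at the high dose of Scutellariae Radix (log2 0.35 ± 0.08 SE) and did not pass at that of the other 5 extracts tested. In Scutellariae Radix CDKN2A rose by 1.42 ± 0.12 SE, from 3.86 to 10.3 CPM. TP73 fell by 0.84 on the log2 scale, from 4.33 to 2.41 CPM. Counts are per gene, so the CDKN2A transcript for ARF, which blocks MDM2, was not measured apart. The counts at the high dose were 5 higher and 7 lower in Scutellariae Radix, 2 and 3 in fresh ginger, 4 and 6 in dried ginger, 2 and 3 in Sayeok-tang, 4 and 1 in Pinelliae Tuber and none in Bojungikgi-tang. All genes were called higher and lower in 28.7% and 28.1% for Scutellariae Radix, 24.3% and 23.6% for fresh ginger, 23.3% and 22.8% for dried ginger, 20.3% and 19.9% for Sayeok-tang, 9.14% and 6.57% for Pinelliae Tuber and 2.24% and 2.31% for Bojungikgi-tang. The 5 of 16 higher in Scutellariae Radix and the 4 of 16 higher in dried ginger are near these shares.

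Paralogs of the 10 genes did not move as one. Of 15 listed, 12 were tested, with 5 higher and 7 lower in Scutellariae Radix, 6 and 5 in fresh ginger, 1 and 6 in dried ginger, 4 and 5 in Sayeok-tang and 0 and 2 in both Bojungikgi-tang and Pinelliae Tuber. The shares of all genes called higher and lower were 28.7% and 28.1%, 24.3% and 23.6%, 23.3% and 22.8%, and 20.3% and 19.9% in the first 4 of these extracts, 2.24% and 2.31% in Bojungikgi-tang and 9.14% and 6.57% in Pinelliae Tuber. The sestrins differed from each other. In Scutellariae Radix SESN2 went from 25.8 to 76.7 CPM (log2 1.57 ± 0.05 SE) while SESN3 fell from 3.94 to 2.66 CPM (log2 -0.56 ± 0.15 SE) and SESN1 changed by 0.10. In dried ginger SESN3 (log2 -0.95 ± 0.18 SE) fell along with SESN1, and SESN2 was not called (log2 0.12 ± 0.06 SE). TP53INP2 fell in Scutellariae Radix (-0.94), where TP53INP1 rose, and in fresh ginger GADD45B rose by 1.40 ± 0.11 SE where GADD45A rose by 0.36. The difference between paralogs was not tested.

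Cell cycle genes that the DREAM repressor complex lowers when p21 is abundant were mostly lower at the high doses of Scutellariae Radix, fresh ginger and dried ginger. Of 25 tested, 25 were lower in Scutellariae Radix (median log2 -0.79), beside 28.1% of all genes, with KIF20A (-1.29), PLK1 (-1.16) and AURKB (-1.15) in front. Fresh ginger had 21 lower and 2 higher (median -0.42), beside 23.6% and 24.3% of all genes. In dried ginger, with CDKN1A up 1.10-fold, 23 were lower and 0 higher (median -0.72), beside 22.8% and 23.3%, with KIF20A at -1.34. At the high dose of fresh against dried ginger, 21 of the 25 were higher in fresh ginger, beside 13.2% of all genes, as were the 10 genes of the panel. Sayeok-tang had 1 higher and 7 lower (median -0.03), beside 20.3% and 19.9%, with CDKN1A up 1.47-fold. Counts were 0 and 1 in Bojungikgi-tang, beside 2.24% and 2.31%, and 2 and 1 in Pinelliae Tuber, beside 9.14% and 6.57%. The part of p21 in the levels of these cell cycle genes was not tested.

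Genes of the ATF4 and CHOP stress response, 11 of 12 tested, were all called higher in Scutellariae Radix (11 of 11, median log2 1.33), beside 28.7% of all genes, led by ATF3 (2.93 ± 0.09 SE), PPP1R15A (2.72 ± 0.07 SE) and ASNS (1.86 ± 0.05 SE). Fresh ginger had 9 higher and 0 lower (median 0.61), beside 24.3% and 23.6% of all genes, and dried ginger 10 and 0 (median 0.66), beside 23.3% and 22.8%. ASNS, the asparagine synthetase gene, rose by 1.47 ± 0.05 SE in dried ginger and by 0.73 ± 0.05 SE in fresh ginger. Sayeok-tang had 3 higher and 2 lower, near its 20.3% and 19.9% of all genes. Bojungikgi-tang had 0 and 3, beside 2.24% and 2.31%, and Pinelliae Tuber 1 and 3, beside 9.14% and 6.57%. The lists overlap, since SESN2 is on 3 of them and CHEK1 on the lists of regulators and of cell cycle genes.

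**Figure D5:**
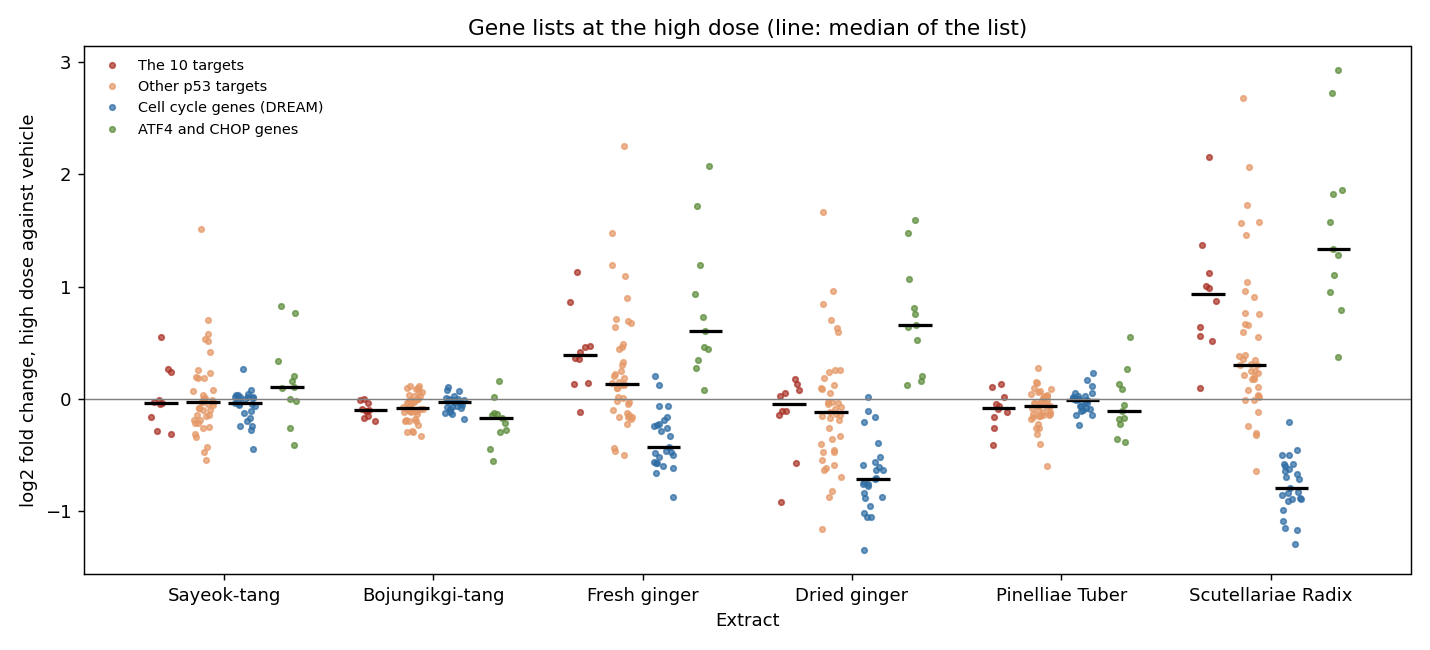
Log2 fold change against the vehicle at the high dose of 6 extracts for the 10 targets, the 41 other p53 targets tested, the 25 cell cycle genes and the 11 ATF4 and CHOP genes, with the median of each list as a line. The cell cycle genes have medians of -0.79 in Scutellariae Radix and -0.72 in dried ginger, where the 10 targets have medians of 0.93 and -0.04.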

How the data were processed

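RNA of HepG2 cells was sequenced in 58 libraries of 24 groups. The deposited table holds expected counts per gene, which the authors made with FastQC 0.11.9, Trim Galore 0.6.5, STAR 2.7.3a and RSEM 1.3.3, per the submitters' processing notes. The roles, order and settings of these tools, and the strand setting, are not given in the sources used here. A further 209 columns match no sample analysed here and were not used. Library totals ran from 22143845 to 31859981. The spread between replicates beyond counting noise was a coefficient of variation of 4.25% (common dispersion 0.00181). Counting noise adds to it, most in genes with few counts such as BBC3, with 165 to 660 per library.

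Expected counts were rounded, genes with at least 1 CPM in 3 libraries were kept (13945), and TMM factors were 0.878 to 1.04. The main test was edgeR 4.0.16 (R 4.3.3) with 1 mean per group over all libraries, glmQLFit and glmQLFTest, and Benjamini-Hochberg adjustment within each of 27 comparisons. The SE is the size of the log2 fold change divided by the square root of the F value. Alternatives were DESeq2 1.42.0, RLE scaling, no filter, only the groups compared and a replicate block. Others left out 3 libraries that stand apart, or each replicate in turn. Replicate 3 of Scutellariae Radix low and replicate 3 of dried ginger low had chi-squares per gene of up to 17.2 and 15.2 against their replicates. Zizyphi Fructus low has no replicate for that measure. The scripts were tested on simulated data. Replicates differed by more than counting noise in every group (lowest chi-square per gene between replicates 2.18), and none was merged. Groups came from the labels. Groups of 1 library were described without a test.

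The 10 genes, the other lists and the tests were chosen with earlier results of these data known. Named by rule were all 10 genes, up to 6 genes per list with the largest called change at a high dose, MDM4, GDF15, SESN2 and SESN3, and the 5 genes most like CDKN1A. BAX was named after its values were seen. Some items that the lists hold are not reported here.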

Additional observations from a re-analysis of the deposited data

Results flagged for a closer look

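In 3 cases a gene moved in opposite directions from the vehicle under 2 extracts that share a sample code prefix, and the direct test of the difference passed (edgeR's quasi-likelihood test, Benjamini-Hochberg adjustment). CDKN1A was above the vehicle in Sayeok-tang (log2 0.55) and below it in Bojungikgi-tang (-0.17) at the high dose, a difference of 0.72 (adjusted p = 4e-19). The Bojungikgi-tang call was lost without replicate 2 of that dose. Its CDKN1A means were 91.0, 93.5 and 91.5 CPM at the high, medium and low dose, with no call between high and low. Of the 55 treated libraries, 37 lay below every vehicle library in CDKN1A. BTG2 was higher in fresh ginger (0.37) and lower in dried ginger (-0.92), a difference of 1.29 (adjusted p = 1e-09). CDKN1A was higher in Scutellariae Radix (2.15) and lower in Pinelliae Tuber (-0.40), a difference of 2.56 (adjusted p = 1e-42). The causes were not tested.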

How the results depend on the processing

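Of the 100 calls of the 10 genes in 27 comparisons, 72 were kept in every setting run and 28 were lost in at least 1. No log2 fold change that was called reversed. Apart from leaving out replicates, 1538 of 1580 values kept their side of the threshold, 27 lost it and 15 gained it, and with a replicate left out the numbers were 1461, 63 and 6 of 1530. In the comparisons with the vehicle, the number of genes called moved by over 1.5 times as follows. Without the filter it was 1 in Bojungikgi-tang high, 0 in fresh ginger medium, 2 in dried ginger high, 0 in dried ginger medium, 2 at each dose of Pinelliae Tuber and 3 in Scutellariae Radix medium. DESeq2 gave 1 in Sayeok-tang low. Without the 3 libraries that stand apart (replicate 3 of Scutellariae Radix low, replicate 3 of dried ginger low and Zizyphi Fructus low) it was 2 in fresh ginger medium, Pinelliae Tuber high and Scutellariae Radix medium. With only the groups compared it was 2 in fresh ginger medium, 0 in dried ginger low, 2 in Pinelliae Tuber high, 3 in Scutellariae Radix medium and 1 in Scutellariae Radix low. High against low dose of Pinelliae Tuber gave 1 without the filter. Leaving out 1 replicate at a time gave 0 to 2 in Sayeok-tang medium and Bojungikgi-tang high, 0 to 1 in fresh and dried ginger medium, 1 to 2 in Pinelliae Tuber medium and 1 to 3 in Scutellariae Radix low. It gave 4 to 7 for high against low dose of dried ginger and 1 to 2 for that of Pinelliae Tuber. The libraries whose removal moved these counts were vehicle replicate 3 and every replicate of Sayeok-tang medium; vehicle replicate 3 and both of Bojungikgi-tang high; vehicle replicate 2 and replicate 1 of fresh ginger medium; vehicle replicates 1 and 3 and replicates 1 and 2 of dried ginger medium; replicate 2 of Pinelliae Tuber medium; vehicle replicates 2 and 3 and replicates 2 and 3 of Scutellariae Radix low; replicate 3 of dried ginger low in its dose contrast; and, in that of Pinelliae Tuber, replicate 1 of the high and replicates 2 and 3 of the low dose. Where 1 library was left in a group, it was assumed to vary like the other groups. With the replicate block 2 genes were called in Scutellariae Radix medium, 9 in Scutellariae Radix high and 9 in fresh against dried ginger. Deviations of 73 same-numbered pairs correlated at -0.16 to 0.21, and 37 pairs correlated best with their own number. In 0 of 19 comparisons with 3 pairs was every pair over 0.1. In the dose contrast of fresh ginger the pairs gave 0.206, 0.047 and 0.135, each best with its own number. In that of Scutellariae Radix they gave -0.0683, -0.0153 and -0.019, none best with its own. Whether the replicate numbers pair the samples cannot be told from these values, and the main test does not pair them. For single libraries, RLE scaling moved CDKN1A in Zizyphi Fructus to -0.30 at the high and -0.26 at the medium dose. The cause of these shifts was not tested. BBC3, with 165 to 660 counts per library, had the fewest counts.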

Other observations

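The single library of the medium dose of Coptidis Rhizoma, which has no replicate and no test, also differed from the vehicle mean in other p53 targets. GDF15, a stress-induced cytokine, read 1107 CPM against 165.6 CPM (log2 ratio 2.74). SESN2, the sestrin gene that ATF4 can also raise, read 62.7 CPM (1.28), and PLK3, a stress-responsive kinase, 20.97 CPM (1.03). DDB2, which recognises damaged DNA, read 24.2 CPM (-0.71), PHLDA3, an inhibitor of AKT, 29.2 CPM (-0.66), and PPM1D, a phosphatase that switches p53 off, 31.7 CPM (-0.61). GDF15, SESN2 and PLK3 were above the vehicle mean while DDB2, PHLDA3 and PPM1D were below it in the same library. These 6 genes were chosen after their values were seen, so their split does not describe the list. In the same list PMAIP1 was at 1.83 and KITLG at -1.41, further from the vehicle mean than all of these but GDF15. How many of the list lay on each side was not counted. Of all genes, 10.4% were at least 1.5-fold higher and 11% lower in this library.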
